A study of Mus musculus with 8 samples.

Results

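The serpin genes Serpina1a to Serpina1e, Serpina3g, Serpina3k, Serpina3m, Serpina3n and Serpina6 were followed in mouse liver. They were chosen by symbol, through the identifiers of the GENCODE mouse annotation, and are 10 of the 56884 genes counted. RNA-seq compared the liver of aged obese female C57BL/6J mice of the DIO group (n = 3) and of the DIO + DHA group (n = 5), with 1 library per mouse and both groups 18 months old at the end. At 2 months of age all mice were put on a high-fat diet, lipids giving 45% of the energy, and ate it for 4 months before the groups were formed. The DIO group then stayed on that diet, with the tocopherol mix of the fish oil added. In the DIO + DHA group, a concentrate from fish oil (683.4 mg of DHA and 46.7 mg of EPA in each g) took the place of 15% (wt/wt) of the dietary lipids. No lean or young mice were analysed here, so every value sets supplemented obese mice against obese mice. The sequenced mice were a part of each group, and mice were kept 5 to a cage, with cages not given in the labels.

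A serpin holds out an exposed reactive loop to a protease. The protease cuts the loop after the residue named P1, the cut loop inserts into the body of the serpin, and both proteins stay locked together. The Serpina1 genes are the mouse counterparts of human alpha-1-antitrypsin, a plasma inhibitor of neutrophil elastase that hepatocytes secrete in large amounts. The Serpina3 genes are the mouse counterparts of human alpha-1-antichymotrypsin, an acute phase protein. Both are single genes in humans and families of copies in mice. Serpina6 encodes corticosteroid-binding globulin, which carries glucocorticoids in blood and inhibits no protease.

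The reactive loops are shown because they set which protease a serpin binds, and so tell the copies apart. Each stretch is 69 coding bases (GRCm39, coding frames of GENCODE mouse release 39), from the hinge codon through 23 codons, with the codons of P1 and of the next residue in capitals. P1 was placed by position, at codon 15 of the stretch in every gene, and no cut site was measured.
Serpina1a (chr12:103820021-103820089, minus strand): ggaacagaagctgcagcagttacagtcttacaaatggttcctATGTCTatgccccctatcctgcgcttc
Serpina1b (chr12:103694588-103694656, minus strand): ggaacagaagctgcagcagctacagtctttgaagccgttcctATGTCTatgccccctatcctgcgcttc
Serpina1c (chr12:103861358-103861426, minus strand): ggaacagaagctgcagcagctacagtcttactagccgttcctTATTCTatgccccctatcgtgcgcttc
Serpina1d (chr12:103730026-103730094, minus strand): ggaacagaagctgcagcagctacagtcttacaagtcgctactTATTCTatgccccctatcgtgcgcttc
Serpina1e (chr12:103913364-103913432, minus strand): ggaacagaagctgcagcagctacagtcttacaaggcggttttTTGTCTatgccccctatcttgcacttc
Serpina3k (chr12:104311528-104311596, plus strand): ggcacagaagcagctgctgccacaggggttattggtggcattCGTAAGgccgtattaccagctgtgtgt
Serpina3m (chr12:104360028-104360096, plus strand): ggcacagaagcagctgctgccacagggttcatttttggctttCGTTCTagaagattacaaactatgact
Serpina3n (chr12:104379707-104379775, plus strand): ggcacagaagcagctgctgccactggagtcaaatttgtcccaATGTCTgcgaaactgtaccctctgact
Serpina1a and Serpina1b had ATG as the P1 codon, Serpina1c and Serpina1d had TAT, and Serpina1e had TTG. Serpina3k and Serpina3m had CGT and Serpina3n had ATG. Between Serpina1 genes the loops differed at 4 to 10 of the 69 bases. The loops of Serpina3k and Serpina3m differed at 18 bases, those of Serpina3m and Serpina3n at 22, and those of Serpina3k and Serpina3n at 29. The hinge letters searched for were not found in the coding sequences of Serpina3g and Serpina6, and the Serpina3g transcript searched has 744 coding bases, against 1254 to 1299 in the other Serpina3 genes.

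Over the aligned coding sequence, the 10 pairs of Serpina1 genes were 96.3% to 98.5% identical, with Serpina1a and Serpina1c the closest pair. The 6 pairs of Serpina3 genes were 80% to 91.3% identical, and Serpina3k and Serpina3m were the closest, with those of Serpina3g resting on 640 to 680 aligned bases. A read that aligned equally well to more than 1 place was not counted, so the copies limit what a count can say. Of all 80-base stretches inside counted exons, 80 bases being the length of the sequenced cDNA read, 68.9% of those of Serpina1a and 68.9% of those of Serpina1c also occurred elsewhere in the genome. The share was 42.9% for Serpina1d, 25.3% for Serpina1b and 23.6% for Serpina1e. It was 7.64% for Serpina3m, 6.72% for Serpina3g, 5.71% for Serpina3k, 0.0595% for Serpina3n and 0% for Serpina6. In the last 500 counted exon bases, only Serpina1a (40.2%), Serpina1c (25.5%) and Serpina1d (9.59%) held such stretches. A 3′-enriched library has most of its reads there if the counted 3′ end is complete. As far as copied stretches go, values of the single Serpina1 genes, above all Serpina1a and Serpina1c, are therefore less certain than those of the Serpina3 genes and Serpina6.

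**Figure D1:**
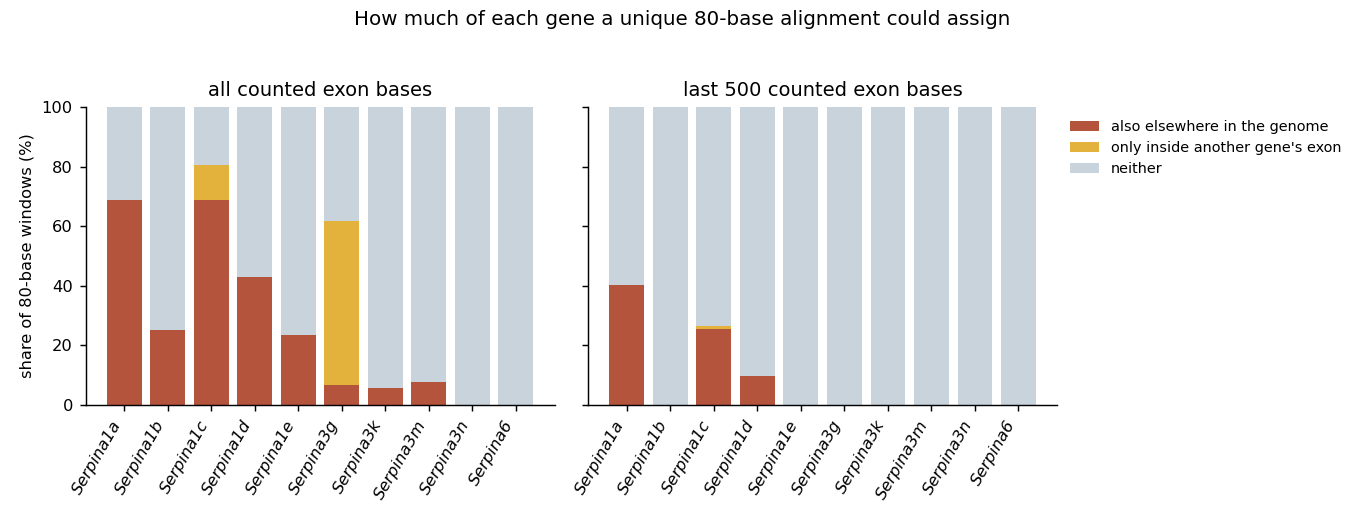
Share of 80-base windows (y axis, %) of each gene (x axis) that also occur elsewhere in the genome, that lie only in an exon shared with another gene, or neither, over all counted exon bases (left) and the last 500 (right). Serpina1a and Serpina1c have the highest shares of copied windows, and Serpina3g stands out for exon bases shared with another gene.

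Overlapping annotation also touches the counts. Serpina3g shared 1170 of its 2105 exon bases with Gm56487, a pseudogene on the same strand that received 0 counts, and a read across both genes was not counted, although the last 500 bases of Serpina3g were free of it. Serpina1c shared 429 of 1361 exon bases with the antisense transcript B430119L08Rik (4 counts in the 8 libraries together), and counting did not use the strand. GENCODE mouse release 39 places the 3′ end of Serpina3k 1994 bases, that of Serpina6 1068 bases and that of Serpina3m 562 bases beyond the counted exons, so reads from there were not counted. The 3′ ends of Serpina1a, Serpina1d and Serpina1c lie 294, 239 and 235 bases beyond the counted exons in that release. For these 3 genes and for Serpina3k, Serpina6 and Serpina3m, the last 500 counted bases may thus not be where most reads fall.

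All 10 genes lie on chromosome 12 of GRCm39, between 103612889 and 104380588, a span of 767.7 kb. The libraries held 1723800 to 5690347 counts, the shallowest being DIO replicate 1. All 10 genes passed the filter on low counts, in both groups, the lowest single value being 33 counts. Levels are given as CPM, counts scaled to a common library total after TMM normalization. A gene is called lower or higher when the quasi-likelihood test of edgeR, adjusted after Benjamini and Hochberg over the 12412 genes that passed the filter, gave a p under 0.05. SE is the standard error of the log2 fold change. The label liver was checked with 9 hepatocyte genes, albumin among them, whose summed level was 98977 to 104882 CPM in DIO and 100868 to 115050 CPM in DIO + DHA. Of the 9, 2 were called higher and 2 lower (44.4%, where 15.2% of all tested genes were called), so the sum does not show that each gene was unchanged.

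Of the 10 genes, 5 were called lower (Serpina1c, Serpina3g, Serpina3m, Serpina3n and Serpina6) and 1 higher (Serpina3k) in the DIO + DHA group. That is 6 of 10, where 15.2% of all tested genes were called, 7.28% as lower and 7.89% as higher. In 5 of the 10 genes the libraries of both groups did not overlap, which was so for 18.4% of all tested genes. With limma-voom, the test of the study's methods, 4 of the 10 (Serpina3g, Serpina3m, Serpina3n and Serpina6) had a log-odds B above 0, where 6.93% of all tested genes did. The median log2 fold change of the 10 genes was -0.08, and that of all tested genes 0.0011. All 4 Serpina3 genes, 1 of 5 Serpina1 genes and Serpina6 were called, and whether the families differ in how often they were called was not tested.

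**Figure D2:**
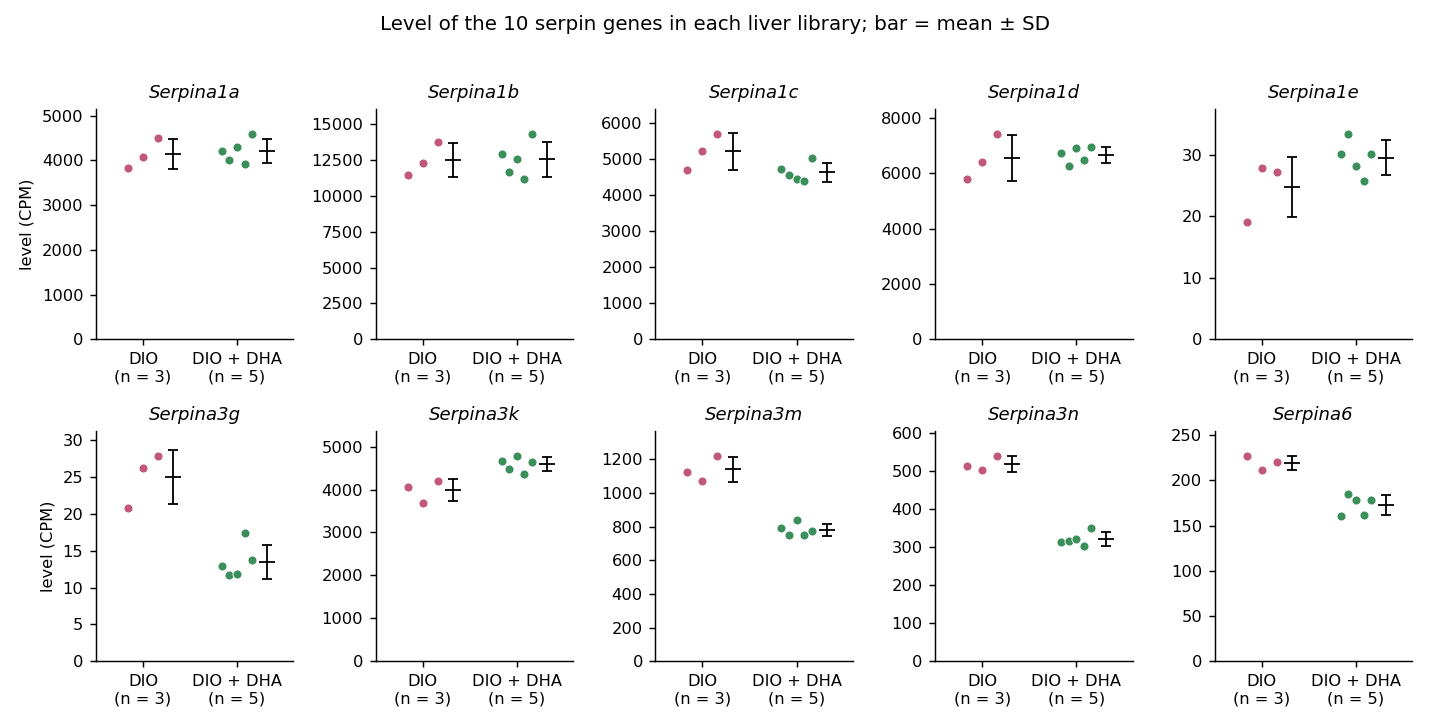
Level in CPM (y axis, from 0) of each of the 10 genes in each library (points), by group (x axis), with mean ± SD as bars. Serpina3g, Serpina3m, Serpina3n and Serpina6 are lower in all 5 DIO + DHA libraries than in any DIO library, and Serpina3k is higher in all 5.

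Serpina3n (ENSMUSG00000021091.9, chr12:104372988-104380588, plus strand), a secreted inhibitor known to block granzyme B and induced in liver during inflammation, changed with the smallest p-value of the 10. Its level was 514, 502 and 541 CPM in DIO replicates 1, 4 and 5. It was 313, 318, 323, 303 and 351 CPM in DIO + DHA replicates 1, 2, 4, 5 and 6. Every DIO + DHA library lay below every DIO library. Serpina3n fell by 0.69 on the log2 scale (SE 0.067, adjusted p = 1.8e-12 in edgeR). The group means were 519 ± 19.8 CPM (SD, n = 3) and 321 ± 17.8 CPM (SD, n = 5), so the level decreased by 38.1%.

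Serpina3m (ENSMUSG00000079012.12, chr12:104304745-104360516, plus strand), another secreted copy of the family, followed. It stood at 1127, 1072 and 1222 CPM in DIO replicates 1, 4 and 5. In DIO + DHA replicates 1, 2, 4, 5 and 6 it stood at 790, 750, 842, 754 and 772 CPM. The groups again did not overlap. The log2 fold change of Serpina3m was -0.55 (SE 0.063, adjusted p = 6.0e-10, edgeR) and the means were 1141 ± 75.8 CPM (SD, n = 3) and 782 ± 37.1 CPM (SD, n = 5).

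Serpina3k (ENSMUSG00000058207.7, chr12:104304745-104312403, plus strand), also called contrapsin and the most abundant of the family, moved the other way. Its level was 4062, 3695 and 4198 CPM in DIO replicates 1, 4 and 5. It was 4667, 4479, 4787, 4363 and 4645 CPM in DIO + DHA replicates 1, 2, 4, 5 and 6. All 5 DIO + DHA libraries lay above all 3 DIO libraries, and the gap between the highest DIO and the lowest DIO + DHA library was small against the spread within DIO. Serpina3k rose by 0.20 on the log2 scale (SE 0.059, adjusted p = 0.0115, edgeR), a 1.15-fold higher level. This call was lost without DIO replicate 4 (0.16, adjusted p = 0.143, edgeR) or DIO + DHA replicate 4 (0.18, adjusted p = 0.0607, edgeR), and over all alternatives the adjusted p ran from 0.00156 to 0.143.

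Serpina3g (ENSMUSG00000041481.18, chr12:104202504-104208198, plus strand), an intracellular serpin that blocks cysteine cathepsins and is best known from activated T cells and macrophages, was with Serpina1e at the lowest level of the 10 genes, and had the largest fold change. Its level was 20.8, 26.1 and 27.9 CPM in DIO replicates 1, 4 and 5, from 37, 145 and 157 counts. It was 12.9, 11.7, 11.8, 17.3 and 13.8 CPM in DIO + DHA replicates 1, 2, 4, 5 and 6, from 33 to 74 counts. The groups did not overlap, though at these counts sampling error is a larger part of the spread than for the other Serpina3 genes. Serpina3g fell by 0.91 on the log2 scale (SE 0.149, adjusted p = 3.2e-06, edgeR). Markers of macrophages and of T and NK cells fell in the same libraries (values with the cell type markers), and their part in the Serpina3g result was not tested. In bulk tissue, fewer cells of a type and less RNA per cell cannot be told apart.

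The promoter of Serpina3g is shown because it was the only member promoter with TTCNNNGAA, the palindrome that STAT factors bind, searched on both strands in the 250 bases before and 50 after the start. RefSeq (GRCm38.p6) listed a promoter for 7 of the 10 genes, Serpina1a to Serpina1e, Serpina3g and Serpina3n, and each was found letter for letter in GRCm39, whose coordinates are given. The 57 bases around the motif, which is in capitals and starts 33 bases before the start site, read as follows.
Serpina3g (chr12:104202349-104202405, plus strand): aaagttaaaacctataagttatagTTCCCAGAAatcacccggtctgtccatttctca
Of 27025 promoters, 8.47% held this motif. The letters TTGCNNCAA, searched for C/EBP factors, were in none of the 7 member promoters and in 2.12% of all. They are not a palindrome and may miss the sites of these factors, so no absence of C/EBP sites follows. The glucocorticoid receptor half-site TGTTCT was in 6 of the 7, the 5 Serpina1 promoters and that of Serpina3n, and in 19.02% of all. The Serpina1 genes are copies of each other, so their 5 matches are not independent cases. A match is a description of letters, and binding was not measured.

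The summed level of the 4 Serpina3 genes differed between the groups by less than the spread between libraries, while their proportions moved. Their summed level was 5669 ± 350 CPM (SD, n = 3) in DIO and 5705 ± 207 CPM (SD, n = 5) in DIO + DHA, a log2 ratio of 0.01. Serpina3k made up 70.3% ± 0.62 (SD, n = 3) of the Serpina3 counts in DIO and 80.4% ± 0.20 (SD, n = 5) in DIO + DHA. Serpina3m went from 20.1% ± 0.37 to 13.7% ± 0.30. Serpina3n went from 9.16% ± 0.28 to 5.63% ± 0.27, and Serpina3g from 0.441% ± 0.068 to 0.238% ± 0.048. For each of the 4 genes the range of shares in one group lay outside that of the other.

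**Figure D3:**
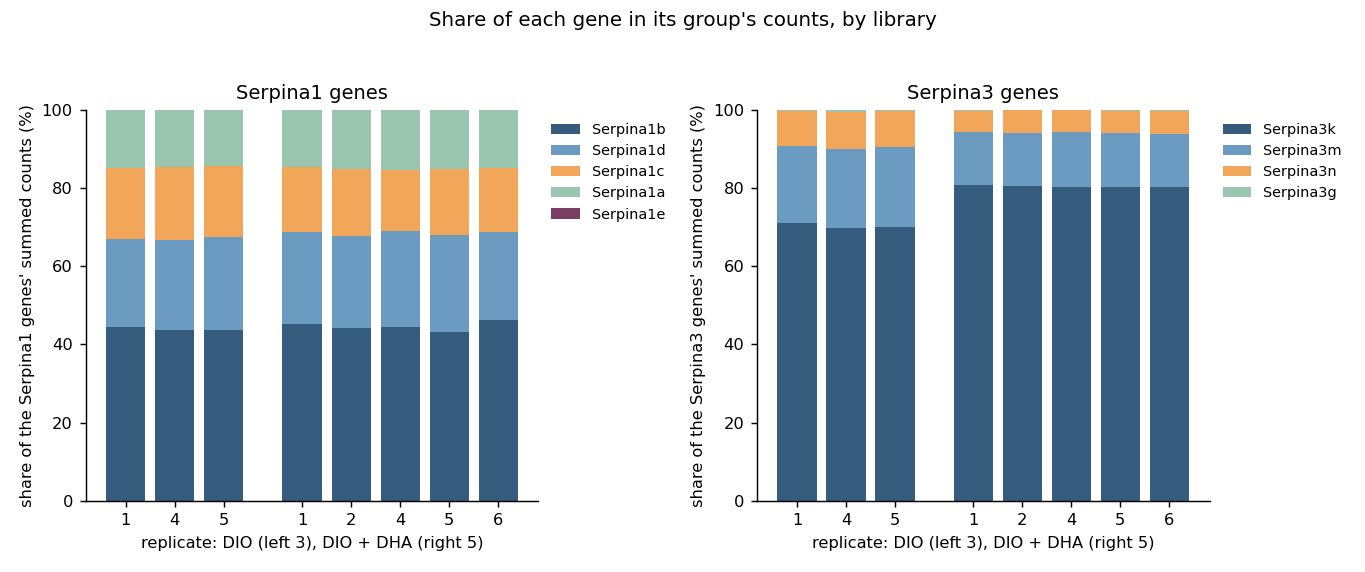
Share (y axis, %) of each gene in the summed counts of the Serpina1 genes (left) and of the Serpina3 genes (right), in each library (x axis, DIO on the left and DIO + DHA on the right of each panel). Serpina3k takes 69.8% to 71.0% of the Serpina3 counts in DIO and 80.2% to 80.7% in DIO + DHA, while the Serpina1 shares shift by less.

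Ratios within a library do not depend on scaling. They were compared for all 16 pairs inside the families by exact permutation, two-sided, over all 56 ways to draw 3 of 8 libraries, which cannot give a p below 0.0179. The p-values were adjusted over the 16 pairs after Benjamini and Hochberg. The 6 pairs that passed all stood at that smallest p, 3 of them with Serpina1c and 3 with Serpina3k. The adjusted p of each thus rests on the others, which are not independent of it. There were 3.60, 3.45 and 3.43 Serpina3k counts for each Serpina3m count in DIO replicates 1, 4 and 5. In DIO + DHA replicates 1, 2, 4, 5 and 6 there were 5.90, 5.97, 5.69, 5.79 and 6.02. The ratio was higher in all 5 DIO + DHA libraries, by 0.75 on the log2 scale (95% interval 0.66 to 0.81, exact permutation p = 0.0179, adjusted 0.0476). Serpina3k to Serpina3n rose by 0.90 (95% interval 0.75 to 1.02, exact permutation p = 0.0179, adjusted 0.0476), from 7.36 to 7.91 counts in DIO to 13.2 to 14.9 in DIO + DHA. Serpina3g to Serpina3k fell by 1.09 on the log2 scale (95% interval -1.51 to -0.47, exact permutation p = 0.0179, adjusted 0.0476).

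The 3 Serpina3 genes that were called lower were also set against each other, and none of the 3 pairs passed the test. Serpina3m to Serpina3n differed by 0.15 (95% interval -0.04 to 0.32, exact permutation p = 0.0714, adjusted 0.143). Serpina3g to Serpina3m differed by -0.34 (95% interval -0.81 to 0.30, exact permutation p = 0.125, adjusted 0.190), with a value of -0.45 and an unadjusted exact permutation p of 0.0286 without DIO + DHA replicate 5, and Serpina3g to Serpina3n by -0.19 (95% interval -0.55 to 0.39, exact permutation p = 0.375, adjusted 0.462). These intervals leave room for unequal change, and those with Serpina3g were the widest.

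**Figure D4:**
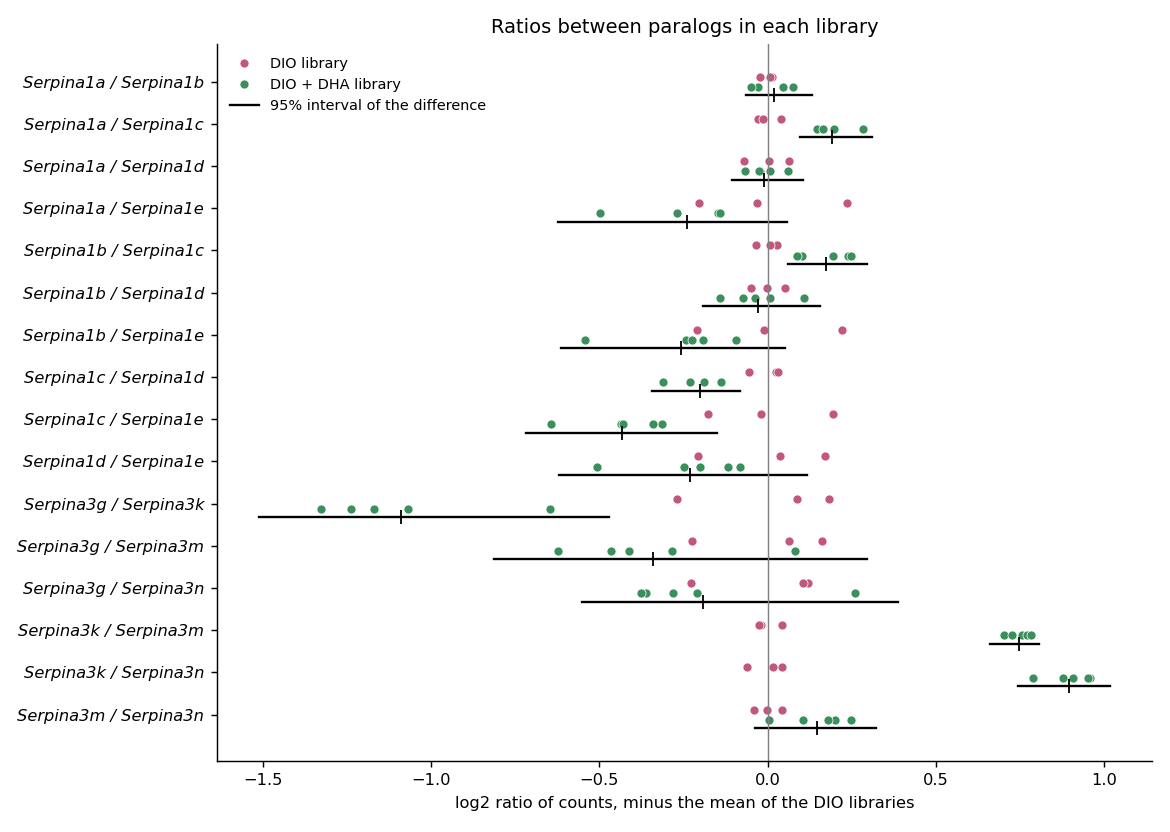
Log2 ratio of counts of 16 pairs of genes (y axis) in each library (points), with the mean of the DIO libraries set to 0 (x axis), and the difference between the groups with its 95% interval (black). The DIO + DHA points of Serpina3k to Serpina3m and Serpina3k to Serpina3n lie farthest to the right, and all pairs with Serpina1c have groups that do not overlap.

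Among the Serpina1 genes, Serpina1a, Serpina1b and Serpina1d showed no difference past the threshold. Serpina1b (ENSMUSG00000071178.12, chr12:103694415-103796632, minus strand), with the most counts of all 10 genes, ranged from 11460 to 13769 CPM in DIO and from 11213 to 14357 CPM in DIO + DHA, at a log2 fold change of 0.01 (SE 0.067, adjusted p = 0.962, edgeR). Serpina1d (ENSMUSG00000071177.5, chr12:103729853-103739851, minus strand), which lies inside the annotated bounds of Serpina1b without sharing an exon, ranged from 5782 to 7441 CPM in DIO and from 6277 to 6962 CPM in DIO + DHA, at a log2 fold change of 0.03 (SE 0.063, adjusted p = 0.853, edgeR). Serpina1a (ENSMUSG00000066366.15, chr12:103819848-103829821, minus strand) ranged from 3835 to 4495 CPM in DIO and from 3917 to 4598 CPM in DIO + DHA, at a log2 fold change of 0.02 (SE 0.062, adjusted p = 0.874, edgeR). In all 3 genes the ranges of the groups overlapped.

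Serpina1e (ENSMUSG00000072849.11, chr12:103913190-103925234, minus strand) was far less abundant, at 19.1, 27.9 and 27.3 CPM in DIO replicates 1, 4 and 5. It was at 25.8 to 33.5 CPM in DIO + DHA, with a median of 30.1 CPM. The groups overlapped, and its log2 fold change of 0.18 (SE 0.128, adjusted p = 0.408, edgeR) did not pass the test. Without DIO replicate 1, its lowest library, the value was 0.098.

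Serpina1c (ENSMUSG00000079015.3, chr12:103861185-103871146, minus strand) was the 1 Serpina1 gene called, narrowly. It stood at 4696, 5246 and 5719 CPM in DIO replicates 1, 4 and 5. In DIO + DHA replicates 1, 2, 4, 5 and 6 it stood at 4727, 4554, 4449, 4402 and 5052 CPM. DIO replicate 1 lay inside the DIO + DHA range. The log2 fold change was -0.17 (SE 0.062, adjusted p = 0.0488, edgeR), and its adjusted p ran from 0.00543 to 0.446 over the alternatives. The call was lost when any of DIO replicates 4 and 5 or DIO + DHA replicates 1, 2, 4 and 5 was left out, the value being -0.09 without DIO replicate 5.

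Relative to its own family, Serpina1c was lower without overlap. Its share of the Serpina1 counts was 18.4% ± 0.29 (SD, n = 3) in DIO and 16.5% ± 0.55 (SD, n = 5) in DIO + DHA. Serpina1a to Serpina1c rose by 0.19 on the log2 scale (95% interval 0.10 to 0.31, exact permutation p = 0.0179, adjusted 0.0476). Serpina1c to Serpina1d fell by 0.20 (95% interval -0.34 to -0.08, exact permutation p = 0.0179, adjusted 0.0476), and Serpina1c to Serpina1e fell by 0.43 (95% interval -0.72 to -0.15, exact permutation p = 0.0179, adjusted 0.0476). Serpina1b to Serpina1c differed by 0.17 (95% interval 0.06 to 0.30, exact permutation p = 0.0357) and missed the threshold after adjustment (0.0816). The pairs among Serpina1a, Serpina1b and Serpina1d differed little, with Serpina1a to Serpina1b at 0.02 (95% interval -0.06 to 0.13, exact permutation p = 0.589, adjusted 0.673), and intervals of -0.11 to 0.11 for Serpina1a to Serpina1d and -0.19 to 0.16 for Serpina1b to Serpina1d. Serpina1a and Serpina1c had 66.7% of the 80-base stretches of Serpina1c in common, and whether the discarding of such reads moved their ratio was not tested.

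The 5 Serpina1 genes summed to 28431 ± 2848 CPM (SD, n = 3) in DIO and 28105 ± 1962 CPM (SD, n = 5) in DIO + DHA, a log2 ratio of -0.02. They took 2.66% to 3.11% of all counts of a DIO library and 2.63% to 2.98% of a DIO + DHA library. The promoters of the 5 genes are shown because all 5 hold GTTAAT, a half-site of the liver factor HNF1, which was in 7.20% of the 27025 promoters. The 86 bases around it (GRCm39, motif in capitals, starting 16 to 78 bases before the start site listed by RefSeq) were nearly the same in all 5.
Serpina1a (chr12:103829884-103829969, minus strand): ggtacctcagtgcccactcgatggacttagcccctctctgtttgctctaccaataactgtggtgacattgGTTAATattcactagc
Serpina1b (chr12:103704459-103704544, minus strand): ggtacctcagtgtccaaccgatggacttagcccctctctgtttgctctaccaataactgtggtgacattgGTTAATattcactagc
Serpina1c (chr12:103871221-103871306, minus strand): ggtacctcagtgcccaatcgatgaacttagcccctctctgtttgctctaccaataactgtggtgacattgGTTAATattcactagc
Serpina1d (chr12:103739893-103739978, minus strand): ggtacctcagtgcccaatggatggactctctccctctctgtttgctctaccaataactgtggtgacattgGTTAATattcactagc
Serpina1e (chr12:103923219-103923304, minus strand): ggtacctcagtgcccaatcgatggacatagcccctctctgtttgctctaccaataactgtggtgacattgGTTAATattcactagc
The last 55 of the 86 bases were the same letters in all 5 genes, the called Serpina1c included, and the differences lay in the first 31. The motif lies within these 55 bases, so the matches in the 5 copies are not independent cases.

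Serpina6 (ENSMUSG00000060807.8, chr12:103612889-103623471, minus strand), the gene of corticosteroid-binding globulin, was at 227, 211 and 220 CPM in DIO replicates 1, 4 and 5. It was at 160, 185, 178, 162 and 178 CPM in DIO + DHA replicates 1, 2, 4, 5 and 6. The groups did not overlap. Serpina6 fell by 0.35 on the log2 scale (SE 0.074, adjusted p = 3.4e-04, edgeR). The means were 219 ± 7.98 CPM (SD, n = 3) and 173 ± 10.9 CPM (SD, n = 5), so the level decreased by 21.4%. No stretch of its exons occurred elsewhere in the genome or in another gene.

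To compare levels between the genes, CPM was divided by the kb of counted exon. In DIO the order was Serpina1b (5176 CPM per kb), Serpina1d (4698), Serpina1c (3836), Serpina1a (2258), Serpina3k (1937), Serpina3m (664), Serpina3n (251), Serpina6 (125), Serpina1e (15.3) and Serpina3g (11.8). In DIO + DHA it was the same order, with Serpina1c at 3407, Serpina3k at 2231, Serpina3m at 455, Serpina3n at 156 and Serpina6 at 98.0 CPM per kb. Neighbours whose ranges overlapped were Serpina1b and Serpina1d, Serpina1d and Serpina1c, and Serpina1e and Serpina3g in DIO. In DIO + DHA they were Serpina1b and Serpina1d, and Serpina1a and Serpina3k. Because reads come mostly from 3′ ends and copied stretches were not counted, this order is of counted reads per length rather than of transcripts. It also depends on the division by length. In mean CPM, Serpina1a stood above Serpina3k in DIO (4137 and 3985) and below it in DIO + DHA (4205 and 4588), with overlapping ranges in both groups.

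The rest of serpin clade A was read from 16 further symbols, of which 6 passed the filter. The others had at most 8 counts in a library. Of these 6, 4 were called lower and 1 higher (83.3%, where 15.2% of all tested genes were called). With limma-voom, 2 of the 6 had B above 0, where 6.93% of all tested genes did. Serpina12, the adipokine vaspin, fell by 1.43 on the log2 scale (adjusted p = 9.8e-15, edgeR), from 46.8 to 17.7 CPM. Serpina10, the protein Z-dependent protease inhibitor of coagulation, fell by 0.71 (adjusted p = 1.3e-11, edgeR), from 263 to 161 CPM. Serpina11 fell by 0.33 (adjusted p = 0.00517, edgeR), a call lost without DIO replicate 4 (-0.24), and Serpina3f fell by 0.81 (adjusted p = 0.0220, edgeR) at 6.76 and 3.83 CPM, a call lost without DIO replicate 4 (-0.85), DIO replicate 5 (-0.66) or DIO + DHA replicate 4 (-0.71), and with DESeq2 (-0.82, adjusted p = 0.108). Serpina7, thyroxine-binding globulin, which lies on chromosome X, rose by 0.41 (adjusted p = 0.0109, edgeR). Agt, which encodes angiotensinogen, had a log2 fold change of 0.02 (adjusted p = 0.903, edgeR).

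Direction was not shared along the chromosome. The span of the 10 genes holds 43 annotated genes, of which 14 were tested. Serpina3k (rose) lies beside Serpina3m and Serpina3n (fell), and the uncalled Serpina1b, Serpina1d and Serpina1a lie between Serpina6 and Serpina12, both lower. Serpina3k and Serpina3m share a first exon of 60 bases (chr12:104304745-104304804) in the counted annotation. The only tested gene of the span that is not a protein-coding serpin was the pseudogene Gm8893, at 22 to 159 counts, which rose by 0.65 (adjusted p = 6.8e-04, edgeR).

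**Figure D5:**
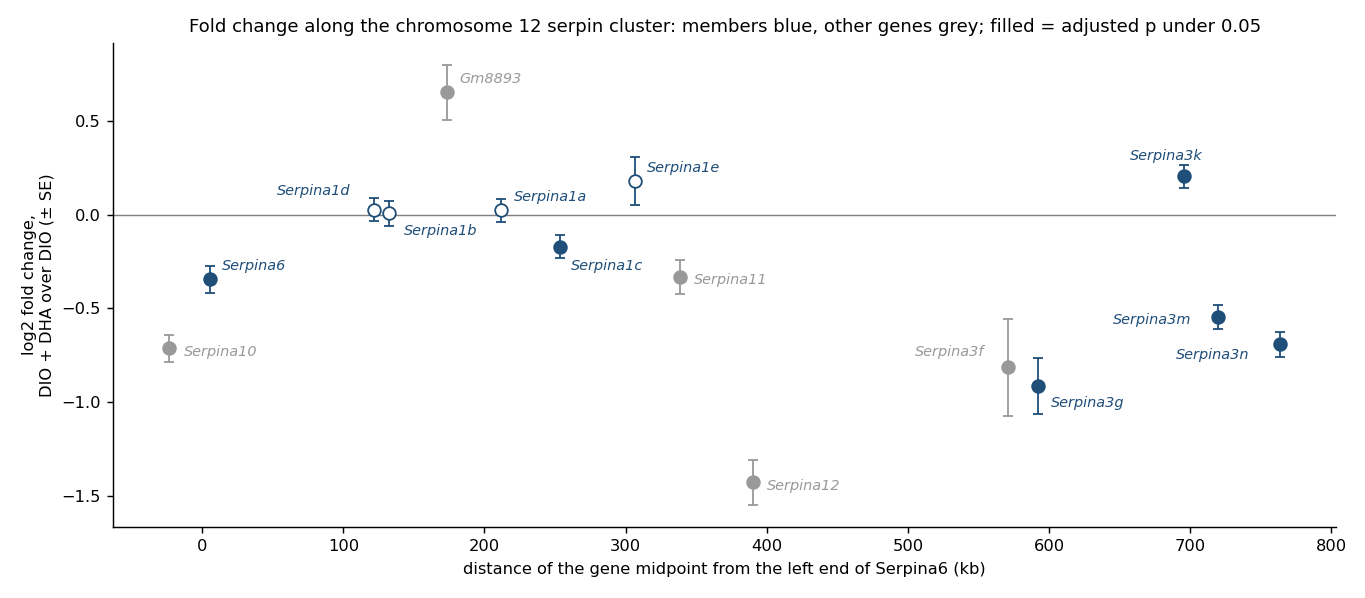
Log2 fold change of DIO + DHA over DIO with its standard error (y axis) by distance from the left end of Serpina6 (x axis, kb), for the tested genes of the serpin cluster and Serpina10 beside it, members in blue, others in grey, filled where the adjusted p was under 0.05. Lower and higher genes lie side by side, with Serpina12 lowest at -1.43 and Gm8893 highest at 0.65.

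For each called member, the 3 genes with the most alike profile were found by the root mean square difference of log2 CPM, centred per gene, over the 8 libraries, among genes of at least 10 CPM. For Serpina3m they were Tpst2 (0.037), Hp (0.038), which encodes haptoglobin, and Fgg (0.042), which encodes a fibrinogen chain. For Serpina3n they were Orm1 (0.059), which encodes the acute phase protein orosomucoid, Serpina10 (0.063) and Lyz2 (0.064), a lysozyme of macrophages. For Serpina3k they included Ndufv2 (0.039) and Atp5mf (0.047), which encode a subunit of complex I and a subunit of ATP synthase. For Serpina3g they were Smim29 (0.12), Gbp3 (0.13) and Mup16 (0.13), for Serpina1c Commd3 (0.040), Ifi27 (0.047) and St3gal5 (0.048), and for Serpina6 they included Cyp2b13 (0.040) and Fitm1 (0.055). Since profiles over 8 libraries are led by the difference between the groups, these are genes with a like fold change, and nothing about control follows from them.

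The counts of the lists that follow stand beside the 15.2% called among all tested genes. A gene that passed the filter on low counts in 1 group only was picked for being higher there. Called genes of this kind are named or counted and are no support for a list. Nr3c2, of the glucocorticoid axis, passed in DIO + DHA only and was not called. The proteases that serpins meet were read from a list of 27 genes, of which 16 were tested and 6 were called, all lower, with a median log2 fold change of -0.16. Of the 6, Gzmb and Gzmk passed the filter in DIO only. Granzyme genes had the largest changes, Gzmb, a target of Serpina3n, falling by 2.06 (adjusted p = 0.00161, edgeR) at 2.80 and 0.626 CPM, and Gzma and Gzmk, also proteases of cytotoxic lymphocytes, by 1.42 and 2.45. Ctsb, a cysteine cathepsin of the kind Serpina3g blocks, fell by 0.42 (adjusted p = 7.3e-07, edgeR), from 1177 to 881 CPM. The abundant coagulation proteases F2, prothrombin, and Proc, protein C, had log2 fold changes of -0.17 and -0.21 that missed the threshold (adjusted p = 0.0502 and 0.0608, edgeR). Serpins of other clades gave 1 higher and 3 lower of 14 tested, among them Serpind1, heparin cofactor II, which fell by 0.33 (adjusted p = 4.5e-04, edgeR). Serpinc1, which encodes antithrombin, had a log2 fold change of 0.12 (adjusted p = 0.177, edgeR), and Serpinf2, alpha-2-antiplasmin, was at 0.03. Serping1, the C1 inhibitor, fell by 0.21 (adjusted p = 0.0107, edgeR), and Serpinb6b fell by 1.55 from 1.93 CPM. Serpinb12 was at 0 in every DIO library and at 1.48 CPM in DIO + DHA, and is the 1 called higher. Serpinb12 passed the filter in DIO + DHA only and Serpinb6b in DIO only, so neither call is support for the list.

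Of 7 tested genes for the clearance of serpin complexes, 1 was called, the receptor gene Lrp1, which fell by 0.40 (adjusted p = 0.00438, edgeR). That is 14.3%, near the share among all tested genes, and no result about the list. Asgr1 and Asgr2, the asialoglycoprotein receptor of hepatocytes, had log2 fold changes of 0.03 and -0.05. Of 28 tested genes of secretion and quality control in the endoplasmic reticulum, which serpins pass on their way out of the cell, 4 were called, all higher, with a median log2 fold change of 0.09. At 14.3% this too is near the share among all tested genes. They were Hspa5 (0.43), Hsp90b1 (0.45) and Pdia4 (0.42), chaperones of the lumen, and Lman1 (0.40), a cargo receptor, which was named after its value was seen, while Os9, a lectin of degradation, had 0.10 (adjusted p = 0.430, edgeR).

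Of 30 regulators of liver and acute phase genes, 8 were called lower and 2 higher, with a median log2 fold change of -0.07. Cebpb, a C/EBP factor of the acute phase, fell by 1.05 (adjusted p = 5.1e-17, edgeR), from 195 to 94.1 CPM. Il1r1, the interleukin-1 receptor, fell by 1.24 (adjusted p = 3.3e-09, edgeR), and Hnf4a, a nuclear receptor of hepatocytes, fell by 0.53 (adjusted p = 7.1e-08, edgeR). Foxa1, a forkhead factor, rose by 0.98 (adjusted p = 0.00944, edgeR) from a low level of 3.28 CPM, and Cebpa, the C/EBP factor of resting hepatocytes, had a log2 fold change of 0.04 (adjusted p = 0.852, edgeR). Of 16 tested genes of the glucocorticoid axis, to which Serpina6 belongs by its ligand, 8 were called lower and 3 higher, with a median of -0.22. Fkbp5, a target of the glucocorticoid receptor, fell by 1.02 (adjusted p = 8.1e-14, edgeR), Errfi1, an inhibitor of EGF receptor signalling, fell by 0.90 (adjusted p = 8.0e-18, edgeR), and Zbtb16, also a target, rose by 0.97 (adjusted p = 8.7e-04, edgeR). Of the steroid-metabolizing enzymes, Hsd11b1 fell by 0.22 (adjusted p = 0.0242, edgeR) and Akr1c6 by 0.56 (adjusted p = 3.5e-10, edgeR).

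Other cell types moved with the groups. Of 12 macrophage markers, 11 were called lower and 1 higher, and their summed level was 932.6 to 1031 CPM in DIO and 533 to 565 CPM in DIO + DHA. Of 11 tested T and NK cell markers, 8 were called, all lower, with sums of 148 to 164 and 51.8 to 58.5 CPM, and 3 of the 8 (Cd8a, Cd8b1 and Gzmb) passed the filter in DIO only. Of the 4 tested neutrophil markers, edgeR called 0 and limma-voom called 0 at B above 0, and 1 had an unadjusted p under 0.05, with sums of 19.1 to 23.96 and 16.4 to 24.5 CPM. All 16 skeletal muscle markers were called higher, with sums of 37.1 to 40.8 and 1426 to 1531 CPM, and 5 of 6 tested squamous epithelium markers were called higher, with sums of 4.79 to 7.88 and 80.1 to 91.7 CPM and Krt1 at 0 in every library. Of these, 6 muscle markers and all 5 called squamous markers passed the filter in DIO + DHA only. The part of these shifts in the results for Serpina3g, Serpina3m, Serpina3n and Serpina6 was not tested. With TMM factors computed without the skeletal muscle and squamous epithelium genes, the same number of members, 6, was called.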

How the data were processed

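Poly(A) RNA of 8 livers was sequenced by a 3′-enriched protocol with molecular identifiers, 1 library per mouse. The authors aligned reads to GRCm39 with STAR 2.7.9a and counted them on GENCODE mouse release 33 exons with featureCounts 1.6.0. The deposited values are raw counts per gene, 56884 in each library. The counting commands named no option for strand, multiple alignments or overlapping genes. Collapsing of identifiers is not stated, so counting errors are lower limits.

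Groups came from the sample titles, and all samples carried the same batch label. Names came from GENCODE mouse release 39. Genes below 5 counts in more than 50% of the libraries of both groups were left out, which kept 12412. Counts were scaled by TMM and tested with edgeR 4.0.16 (quasi-likelihood, Benjamini-Hochberg adjustment, threshold 0.05) in R 4.3.3. The study's limma-voom test (limma 3.58.1, B above 0) and DESeq2 1.42.0 were alternatives. Log ratios of paralogs used counts plus 0.5 and exact two-sided permutation over 56 splits, whose inversion gave the 95% intervals.

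Within a group, any 2 libraries were farther apart than counting noise alone (chi-square per degree of freedom 1.93 to 5.20), so none was treated as a library deposited again. Windows of 80 bases were matched exactly to GRCm39. Named genes are all 10 members, all tested serpins of clade A, in each other list up to 3 of the highest mean CPM and the 3 called with the largest change, and the 3 nearest profiles of each called member, except that marker lists of cell types are given by counts and sums. Of the nearest profiles, 1 gene of Serpina3k and 1 of Serpina6 are not reported here. The members, lists and tests were chosen with earlier results of these data known. No protein sequences were used here.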

Additional observations from a re-analysis of the deposited data

Results flagged for a closer look

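In the group of 5 DIO + DHA libraries, a value was looked at again when its gap to the nearest other library took up more of the group's range than Dixon's 95% critical value. Of 35 groups checked, 2 had such a value, and chance gives about 1 in 20. The level of Serpina11 was 75.1 CPM in DIO + DHA replicate 6, with the gap at 0.860 of the range, and this library lay nearest to the DIO libraries. The log2 ratio of Serpina3g to Serpina3n was -4.12 in DIO + DHA replicate 5, with the gap at 0.742 of the range, which rests on 74 Serpina3g counts. Without that library the difference of this ratio between the groups was -0.31 in place of -0.19, and it did not pass the exact permutation test in either case.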

How the results depend on the processing

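Serpina3g, Serpina3m, Serpina3n and Serpina6 kept direction and call in every alternative run, leaving out each library included, with log2 fold changes of -1.03 to -0.82, -0.58 to -0.48, -0.73 to -0.65 and -0.40 to -0.32. With B above 0 in limma-voom, 860 genes were called in all, 0 members were called higher (4 lower) and 2 further clade A serpins were called. Serpina1c lost its call without a filter (-0.17, adjusted p = 0.0840), with 10 counts in every library (-0.17, adjusted p = 0.0578), without robust dispersions (-0.17, adjusted p = 0.0685), with DESeq2 (-0.17, adjusted p = 0.134) and with B. Serpina3k lost it with B. Signs near 0 turned for Serpina1a (-0.00093), Serpina1b (-0.017) and Agt (-0.0057) with library size only, and for Serpina1b in limma-voom (-0.0047) and with the replicate block (-0.028). Leaving out 1 library gave 1432 to 1859 called genes, 4 to 6 called members, 4 to 5 lower and 0 to 1 higher, 3 to 5 further clade A serpins, and 6 to 8 pairs with an exact p under 0.05 (7 with all libraries). The call of Serpina3k was the one lost in the counts of 0, without DIO replicate 4 or DIO + DHA replicate 4. Summed log2 ratios then ran from -0.08 to 0.06 for Serpina1 and from -0.04 to 0.05 for Serpina3 (alternative added after seeing the data). Over the same fits, Serpina1a ran from -0.023 to 0.097, Serpina1b from -0.051 to 0.093, Serpina1d from -0.049 to 0.138, Serpina1e from 0.098 to 0.263, Agt from -0.0017 to 0.035, Serpina1a to Serpina1b from 0.0034 to 0.035, Serpina1a to Serpina1d from -0.044 to 0.023 and Serpina1b to Serpina1d from -0.061 to 0.0014. Causes were not tested.

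The replicate numbers 1, 4 and 5 occur in both groups, but same-numbered libraries did not deviate together (correlations of -0.013, -0.013 and -0.011). With the replicate block, 1538 genes and 6 members were called, and Serpina3f lost its call (-0.72). Without DIO replicate 4, Serpina1a to Serpina1e (-0.34) and Serpina1b to Serpina1e (-0.36) reached an unadjusted exact permutation p of 0.0476. Depth limits Serpina1e and Serpina3g, whose counts were 33 to 157 in a library. Reads shared by copies were not counted, and how many were lost is unknown.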
